A study of Drosophila melanogaster with 24 samples.

Results

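Zn72D is a zinc-finger RNA-binding protein of the fruit fly Drosophila melanogaster, and the libraries described here compare flies labelled for RNA interference against Zn72D with their controls. They were chosen by their titles, 3 labelled as Zn72D knockdown and 3 labelled as the matching wild type, and make up 6 of the 24 RNA-seq libraries in the series. The titles and the library names, which carry the fly shorthand for an inverted repeat, are the source of the group names below. All 6 libraries give their source as the whole organism, whereas the description of the series speaks of midgut-specific manipulation and the shared extraction protocol speaks of intestinal stem cells sorted from midguts. The driver line, the strain, the age, the sex and the number of animals behind each library are not given in the labels of these 6 libraries, and no other allele or agent is named for either group. Nothing says that libraries of a group came from separate animals or cultures, so the p-values measure the spread between these libraries, which may be technical. The rule for choosing libraries used no measured value.

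Zn72D binds RNA and is the fly relative of mammalian Zfr. It is known for its part in dosage compensation, where it is needed for correct splicing of the transcript of maleless (mle), the RNA helicase of the complex that doubles transcription from the male X chromosome. It is also known as a regulator of adenosine-to-inosine RNA editing by the single fly ADAR enzyme, which it binds in the nervous system. In the gut, enterocytes digest and absorb food and turn over from intestinal stem cells, and a fly sample that holds a whole gut shows strong expression of digestive enzymes.

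Expression was read as TPM (transcript abundance scaled to a fixed total per library) for 8478 genes whose mean over the 6 libraries reached 1 TPM. Fold changes are differences of log2(TPM + 1) between knockdown and control, positive where the knockdown is higher, with their standard errors. On that scale the change of a gene of low level is understated. A gene is called where limma's moderated test gave a Benjamini-Hochberg adjusted p under 0.05 over all genes tested.

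The tissue check went against both a plain reading of whole flies and one of sorted stem cells. Transcripts of the enterocyte membrane protein gene mex1 stood between 651 and 876 TPM in all 6 libraries. The stem cell transcription factor gene esg stood at 9.05, 15.2 and 16.9 TPM in the knockdown libraries and at 19.3, 22.8 and 18.3 TPM in the controls, against 189 to 802 TPM in the sorted midgut libraries of the series. The photoreceptor genes ninaE and Arr2, the haemocyte genes Hml and NimC1, the fat body gene Fbp1, the germline gene vas and the male genes Mst84Da, Acp26Aa and SP were at or near 0 in every library. Some other members of the fat body, female, male and neuron and photoreceptor marker lists were not near 0 throughout. Acbp3, of the fat body list, stood at 113 to 151 TPM in the knockdown libraries and at 1156 to 1294 TPM in the controls. The yolk protein gene Yp3, of the female list, stood at 62.4 to 73.2 TPM and at 38.6 to 54.5 TPM, respectively. Of the neuron and photoreceptor list, Syb stood at 271 to 326 TPM and at 246 to 303 TPM, respectively. Est-6 was the 1 call among 3 tested male markers (0.885% of all genes were called higher). It stood at 1.77, 3.04 and 3.39 TPM in the knockdown libraries and at 0.211, 0.170 and 0.0417 TPM in the controls (1.69 ± 0.23, limma adjusted p = 0.00922). The muscle gene Mhc stood at 67.0, 167 and 176 TPM in the knockdown libraries and between 146 and 151 TPM in the controls, and the Malpighian tubule gene Uro at 1.499, 24.7 and 9.50 TPM in the knockdown libraries and between 23.4 and 32.5 TPM in the controls. The rows of the mitochondrial genome are listed at 0 throughout and were not used. In bulk RNA, fewer cells of a type and less RNA per cell cannot be told apart.

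Several features of the libraries touch every result that follows. The deposited coverage amounts to an estimated 5.69 to 7.74 gigabases of aligned sequence per library, and 8131 to 8512 genes reached 1 TPM. Spearman correlations were 0.958 to 0.973 within the knockdown group and 0.976 to 0.979 within the controls, and knockdown library 3 correlated more with control 1 (0.968) than with knockdown library 1 (0.959). Among the 180 genes called in the comparison, knockdown library 3 was the one nearest to the control mean for 100. The 3 control tables also stand in the series a second time, under labels of the E374A overexpression. Coverage was equal within 0.1% for 82.4%, 82.2% and 82.4% of the genes with any coverage in the control table. These are thus the same reads quantified again and were counted once.

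Knockdown library 1 differed from the other libraries by gene length. Over 8052 protein-coding genes, its median difference from the control mean was 0.14 (log2) for genes of at most 1 kb of exon and -0.13, -0.54, -0.89 and -1.13 in the bins of 1 to 2, 2 to 4, 4 to 8 and over 8 kb. The same medians lay between -0.20 and -0.10 in knockdown library 2 and between -0.01 and 0.11 in knockdown library 3. None of the 3 controls left the range from -0.08 to 0.08 in any bin. Of 1221 genes in the shortest bin 29 were called higher and 18 lower, and of 1225 genes of 4 to 8 kb 1 was called higher and 6 lower. The part of length in the results below was not tested.

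**Figure D1:**
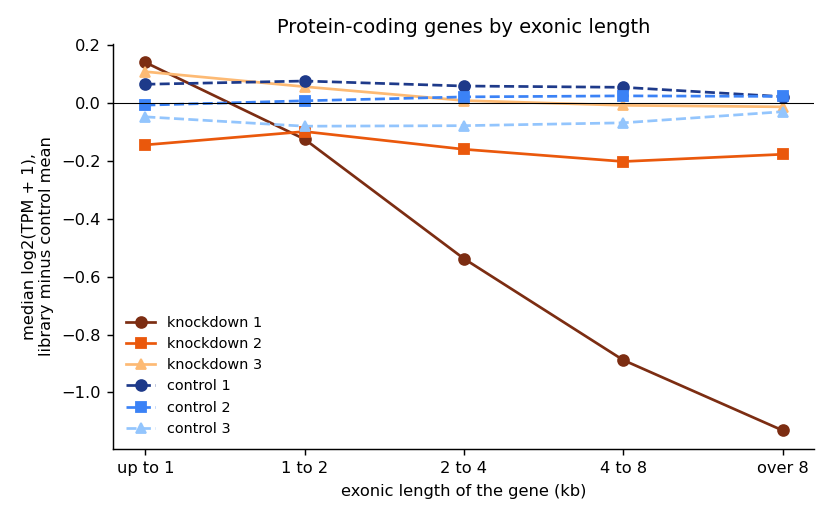
Median log2 difference from the control mean (vertical axis) by exonic length of protein-coding genes (horizontal axis, kb), one line for each library, solid for the 3 knockdown libraries and dashed for the 3 controls. The line of knockdown library 1 runs from 0.14 in the shortest bin to -1.13 in the longest, while the controls stay between -0.08 and 0.08.

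The targeted gene itself did not separate the groups. Zn72D (FBgn0263603, chromosome 3L:16106594-16112626) stood at 10.6, 17.9 and 16 TPM in the knockdown libraries, against 18.6, 18.1 and 16.9 TPM in the controls. Knockdown library 1 was the lowest of the 6, knockdown library 2 lay within the range of the controls, and knockdown library 3 lay just under their lowest value. The fold change was -0.28 ± 0.22 (log2, SE; limma adjusted p = 0.471), and the two-sided exact permutation test over 3 against 3 libraries gave p = 0.2. Zn72D carries 5.291 kb of exon, in a length bin whose median was -0.89 in knockdown library 1. Since its RNA did not check the labels, the groups below are named by their labels alone.

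Adar, the gene of the editing enzyme (FBgn0026086, chromosome X:1773725-1788065), stood at 6.10, 9.74 and 13.3 TPM in the knockdown libraries and at 19.1, 14 and 19.1 TPM in the controls. Every knockdown library lay below every control, as they did for 19.8% of all genes, with the highest knockdown value close to the lowest control. The fold change of -0.83 ± 0.27 did not pass the test (limma adjusted p = 0.165). The two-sided exact permutation p of 0.1 is the smallest that 20 splits of 6 libraries allow. Without knockdown library 3 the change was -1.06 with an adjusted p of 0.0455, and without knockdown library 1 it was -0.56 with an adjusted p of 0.186. Adar shares part of its span with prage on the same strand and has 8.963 kb of exon, in a length bin whose median was -1.13 in knockdown library 1.

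Transcripts of mle, the known splicing target of Zn72D, stood at 5.43, 7.06 and 9.57 TPM in the knockdown libraries, against 11.9, 12 and 9.89 TPM in the controls (-0.58 ± 0.22, limma adjusted p = 0.208). The groups did not overlap (19.8% of all genes lay below every control) but nearly met between knockdown library 3 and control 3. A gene table does not show splicing, so the mle isoforms were not measured here. Of 14 dosage compensation genes tested none was called, with a median fold change of -0.40 beside -0.17 over all genes, and without knockdown library 3 JIL-1 and msl-2 were called lower. Among 16 genes of RNA editing and its regulators, again none was called, with a median of -0.41, which was -0.15 without knockdown library 1. Without knockdown library 3, Adar and sqd were called lower. The male-specific roX RNAs, scaffolds of the dosage compensation complex, are listed at or near 0 except in knockdown library 1, where lncRNA:roX1 stood at 1.29 TPM and lncRNA:roX2 at 0.989 TPM. Both lists hold long genes, with a median of 4.83 and 4.77 kb of exon. Of 38 splicing factor genes, 2.346 kb long at the median, none was called and the median was -0.16. Without knockdown library 3, 3 of these were called lower. That fit, which also gave the calls of JIL-1, msl-2, Adar and sqd, called 463 of 8465 genes lower.

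Across all genes, 180 of 8478 were called, 2.12%. Of these 75 (0.885%) were higher and 105 (1.24%) lower in the knockdown libraries. The median fold change of all genes was -0.17, and after median-ratio scaling, which moved that median to -0.01, 118 genes were called higher and 108 lower. The higher share of the calls was thus 41.7% on the deposited TPM and 52.2% after scaling, and 67 of the higher and 91 of the lower calls were made on both. At an unadjusted p under 0.05 there were 1676 genes. Groups did not overlap for 2405 genes (28.4%), with the knockdown above every control for 723 (8.53%) and below for 1682 (19.8%), and all 180 called genes were among them. The call count rested on single libraries. It was 203, 54 and 591 without knockdown libraries 1, 2 and 3, and 76, 80 and 82 without controls 1, 2 and 3. Without knockdown libraries 1, 2 and 3, 107, 26 and 128 genes were higher and 96, 28 and 463 lower, of 8509, 8452 and 8465 tested. Without controls 1, 2 and 3, 42, 39 and 31 were higher and 34, 41 and 51 lower, of 8451, 8474 and 8496 tested. Counts of list members in these fits stand beside these totals. Fits with 1 library left out kept 41 of the 180 calls in every one of 6 cases, CG16826, whe, lcs and CG33109 among them.

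**Figure D2:**
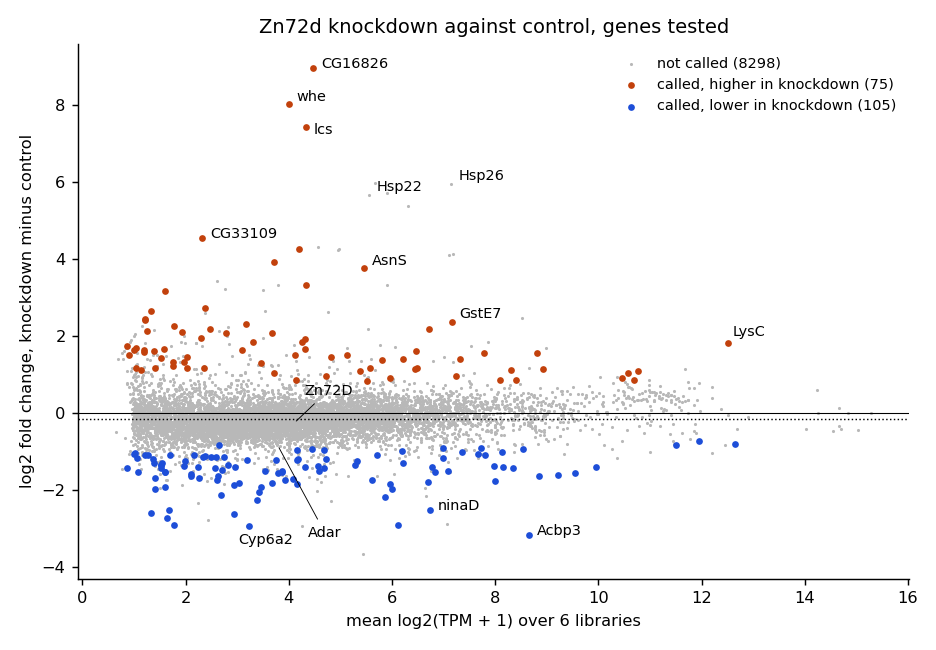
Each point is one of 8478 genes, with its mean log2(TPM + 1) over 6 libraries on the horizontal axis and its log2 fold change, knockdown minus control, on the vertical axis. The 75 genes called higher and 105 called lower are coloured, and the dotted line marks the median of all genes at -0.17. The height of genes listed at 0 in the controls, such as CG16826 and whe, depends on the pseudocount of 1 TPM.

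The widest gaps belonged to genes that were read in every knockdown library and listed at 0, or nearly so, in the controls. CG16826 (chromosome 2L:13347773-13349020) stood at 493, 599 and 399 TPM in the knockdown libraries and is listed at 0 in all 3 controls (limma adjusted p = 4.83e-08). On the X chromosome, whe (X:21402339-21402772) stood at 367, 172 and 264 TPM, against 0 in all 3 controls (adjusted p = 1.02e-06). Its neighbour lcs (X:21396727-21397316) stood at 409.8, 223 and 198 TPM in the knockdown libraries and at 0.640, 0.369 and 0.617 TPM in the controls, a fold change of 7.42 ± 0.27 (adjusted p = 1.78e-06). No fold is given for the genes listed at 0. CG33109 on chromosome 3R stood at 21.0, 23.7 and 24.6 TPM in the knockdown libraries, against 0, 0.121 and 0 TPM in the controls. At lower levels, CG43400, CG43679 and the methuselah-like receptor gene mthl8 are also listed at 0 in every control and stood at 3.23, 3.97 and 6.25 TPM, at 6.02, 3.16 and 4.38 TPM and at 1.78, 2.45 and 2.81 TPM in the knockdown libraries. These make 5 called genes listed at 0 in every control, and no called gene is listed at 0 in every knockdown library.

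A few genes showed the opposite pattern. Transcripts of asRNA:CR46029, annotated antisense to Gyc89Da and Gyc89Db, stood at 0.0213, 0.0237 and 0.00630 TPM in the knockdown libraries, against 5.80, 5.52 and 4.27 TPM in the controls (-2.60 ± 0.19, limma adjusted p = 0.000225). CG6912 stood at 0.340, 0.0998 and 0.316 TPM in the knockdown libraries and at 8.87, 9.53 and 7.08 TPM in the controls (-2.92 ± 0.20, adjusted p = 0.000144). For antr the levels were 0.331, 0.768 and 0 TPM in the knockdown libraries, against 4.30, 4.85 and 3.60 TPM in the controls. These 3 genes, like CG16826, whe, lcs, CG33109, CG43400 and CG43679, kept their calls whichever library was left out, while mthl8 lost its call without knockdown library 2 or 3.

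The same genes can be set beside 2 further whole-organism libraries, labelled as E374A controls 1 and 2, whose Adar level of 879 and 801 TPM went against that label. There CG16826 stood at 1221 and 1472 TPM, whe at 342 and 469 TPM, lcs at 751 and 1129 TPM and CG33109 at 57.7 and 65.7 TPM. The level of these 4 genes in those libraries was thus on the side of the knockdown libraries, as was asRNA:CR46029 with 0 and 0.00878 TPM. CG6912 differed, at 8.07 and 30.3 TPM there. These libraries entered no test here. The other group of their set, labelled as E374A overexpression, holds the same reads as the controls of this comparison. A contrast within that set would thus rest on the same control reads and would not be independent of the comparison here.

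**Figure D3:**
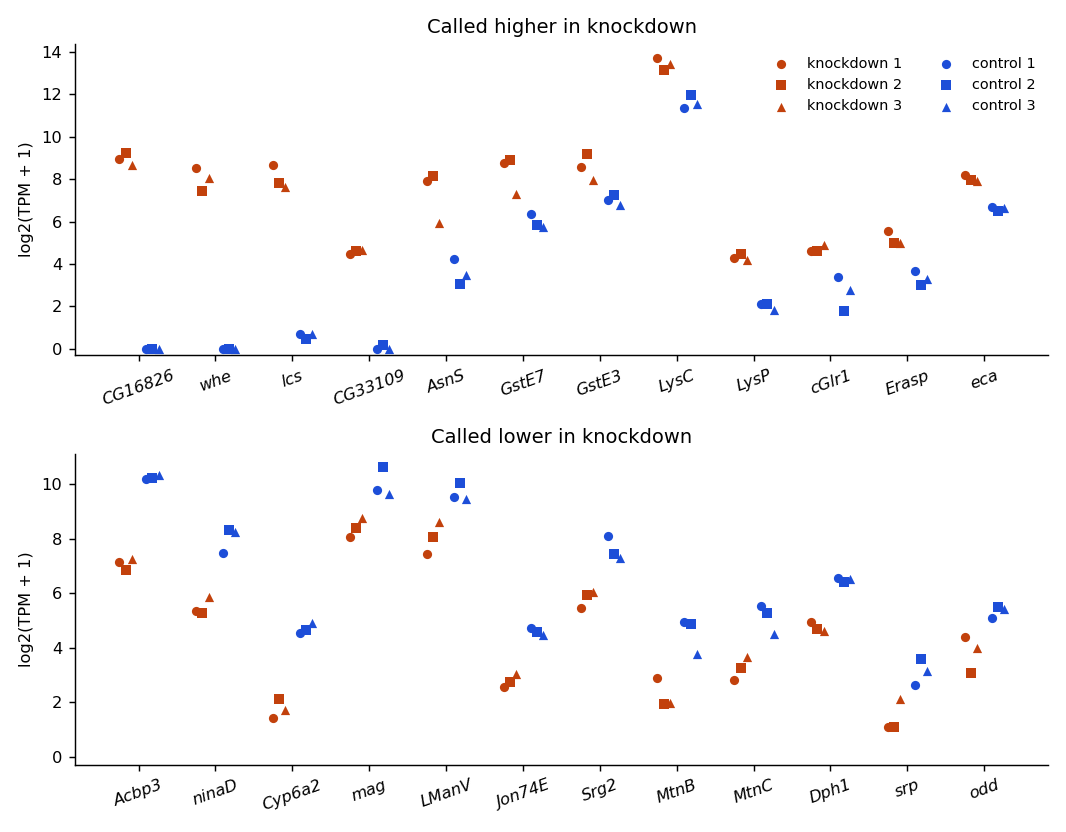
log2(TPM + 1) (vertical axis) of 12 genes called higher (top) and 12 called lower (bottom), each point one library, with the 3 knockdown libraries left of the 3 controls. CG16826, whe, lcs and CG33109 sit at or near 0 TPM in all 3 controls, and Acbp3 stands at 113 to 151 TPM in the knockdown libraries and at 1156 to 1294 TPM in the controls.

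Lysozymes, which digest bacterial cell walls in the fly gut, held the densest calls among the higher genes: 3 of 7 tested members, against 0.885% of all genes. LysC, annotated as a pseudogene, stood at 13199.7, 8935 and 10904 TPM in the knockdown libraries and at 2577, 4051 and 2937 TPM in the controls (1.80 ± 0.21, limma adjusted p = 0.00367). LysP stood at 18.7, 21.4 and 17.2 TPM in the knockdown libraries and at 3.36, 3.36 and 2.57 TPM in the controls, a gap of 2.30 ± 0.18 (adjusted p = 0.000361). Both kept their call whichever library was left out. LysS, at 17.1, 8.69 and 15.1 TPM in the knockdown libraries, against 1.62, 3.99 and 1.85 TPM in the controls, rose by 2.08 ± 0.32 (adjusted p = 0.0147) but lost its call without control 1 or without control 3. LysB overlapped between the groups, at 8059, 4995 and 5234 TPM in the knockdown libraries, against 2546, 5419 and 3819.6 TPM in the controls. Summed over the list, lysozyme transcripts amounted to 60220 TPM, 35786 TPM and 44093 TPM in the knockdown libraries, against 18258 TPM, 35209 TPM and 24193 TPM in the controls, so that knockdown library 2 and control 2 were alike in the sum. The genes are related copies, some of them near-identical. They lie within or beside mwh, the planar polarity gene multiple wing hairs. Its span of 3L:1200786-1232700 covers LysB, LysC, LysD, LysE, LysP and LysS. Transcripts of mwh rose as well, with 56.1, 48.0 and 72.7 TPM in the knockdown libraries against 16.2, 25 and 19.4 TPM in the controls (1.5 ± 0.22, adjusted p = 0.0135), and reads of overlapping genes may have been split between them.

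Glutathione S-transferases conjugate glutathione to foreign and oxidised compounds, and 5 of 45 tested genes of this list and the antioxidants rose while none fell (0.885% of all genes rose and 1.24% fell). GstE7 stood at 439, 478 and 158 TPM in the knockdown libraries, against 81.2, 55.8 and 52.5 TPM in the controls (2.36 ± 0.42, limma adjusted p = 0.0382). GstE3 stood at 383, 580.4 and 244 TPM in the knockdown libraries, against 129, 150.2 and 110.2 TPM in the controls (1.55 ± 0.29, adjusted p = 0.0331). In both genes knockdown library 3 was the lowest of its group and still stood above every control, and GstE7 was not called after median-ratio scaling (adjusted p = 0.0650). Smaller rises were called for GstE1 (1.37 ± 0.27, adjusted p = 0.0382) and GstE5 (1.16 ± 0.21, adjusted p = 0.0297), which lie with GstE3 and GstE7 in one cluster at 2R:18398393-18407688. GstD5, from the other large cluster of the family, stood at 17.2, 14.7 and 10.8 TPM in the knockdown libraries and at 4.31, 4.72 and 2.79 TPM in the controls (1.62 ± 0.24, adjusted p = 0.0127). Members of the cluster did not all move alike: GstE8 was 1.75 ± 0.45 higher without passing the test (adjusted p = 0.112), and GstE10 stood at 3.05, 8.51 and 5.91 TPM in the knockdown libraries, against 18.6, 12.3 and 14.3 TPM in the controls (-1.30 ± 0.31, adjusted p = 0.0751). The number of list members called higher was 2, 0 and 7 without knockdown libraries 1, 2 and 3, and 1, 2 and 0 without controls 1, 2 and 3. The list median was 0.24 beside -0.17 over all genes.

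AsnS makes asparagine from aspartate, and its level spread widely between the knockdown libraries. It stood at 241, 282 and 60.6 TPM in the knockdown libraries and at 17.8, 7.38 and 10.1 TPM in the controls (3.75 ± 0.64, limma adjusted p = 0.0494). The call held without knockdown library 3, was lost without any other library, and was lost after median-ratio scaling (3.93, adjusted p = 0.0758). The other enzymes of amino acid metabolism named next come from no list and were chosen after their values were seen. Cth, the cystathionine lyase that yields cysteine, stood at 149, 169.9 and 92.9 TPM in the knockdown libraries, against 58.1, 60.9 and 57.7 TPM in the controls (1.16 ± 0.23, adjusted p = 0.0384). Mtap, of methionine salvage, rose by 0.90 ± 0.18 (adjusted p = 0.0425). Gs2, a glutamine synthetase, fell to 124, 223 and 192 TPM in the knockdown libraries, against 417, 567 and 419 TPM in the controls (-1.40 ± 0.24, adjusted p = 0.0229), and argininosuccinate synthetase (Ass) fell by 0.92 ± 0.18 on the log2 scale (adjusted p = 0.0367). Without any one of the controls none of Cth, Mtap, Gs2 and Ass was called. These single enzymes moved in both directions. In the list of unfolded protein and amino acid stress genes, none of 26 was called. Its member Thor, the translation repressor 4E-BP, stood at 578, 1919.5 and 1334 TPM in the knockdown libraries and at 727, 679 and 728 TPM in the controls, with knockdown library 1 below the controls and knockdown libraries 2 and 3 above.

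Heat shock genes had the highest median of all lists and no call. Of 28 tested genes the median fold change was 1.79, 16 lay above every control in every knockdown library, against 8.53% of all genes, and none lay below. Hsp26, a small heat shock protein gene, stood at 1983, 1802 and 377 TPM in the knockdown libraries, against 91.3, 2.85 and 15.4 TPM in the controls. Its fold change of 5.94 ± 1.37 carried an adjusted p of 0.131 (limma), and both groups spread widely. Hsp22 stood at 754, 605 and 80.9 TPM in the knockdown libraries and at 13.4, 0.970 and 9.45 TPM in the controls (5.65 ± 1.21, adjusted p = 0.114). Hsp27 stood at 761, 783 and 216 TPM in the knockdown libraries and at 45.4, 2.66 and 10.1 TPM in the controls (5.36 ± 1.10, adjusted p = 0.105). Across the groups, knockdown library 3 and control 1 were nearest to each other in these genes. Hsp83, the fly Hsp90, overlapped, with 1144, 1405 and 398 TPM in the knockdown libraries, against 433, 73.7 and 119 TPM in the controls. Values of the Hsp70 copies, such as Hsp70Aa at 1151, 687 and 238 TPM in the knockdown libraries, against 161, 4.46 and 41.2 TPM in the controls, are uncertain because the copies are nearly identical. Without knockdown library 3, Hsp22 and Hsp67Bc were called, and without control 1, Hsp27 and the co-chaperone gene stv were, while the other 4 such fits called none. Summed over the list, 13349, 12327 and 5268 TPM in the knockdown libraries stood against 3931, 2380 and 2856 TPM in the controls.

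**Figure D4:**
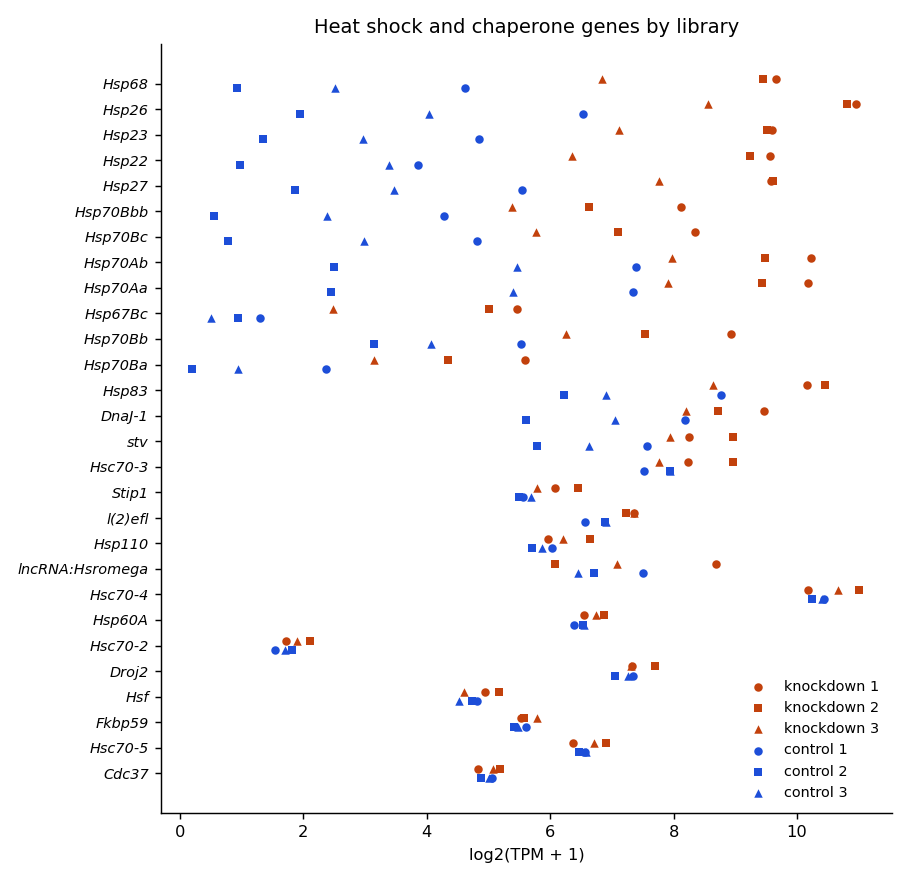
log2(TPM + 1) (horizontal axis) of the 28 tested heat shock and chaperone genes (rows), one point for each library, with the 3 knockdown libraries drawn just above the 3 controls in each row. Small heat shock genes are highest in knockdown libraries 1 and 2, with Hsp26 at 1983 and 1802 TPM, intermediate in knockdown library 3 at 377 TPM, and lowest in control 2 at 2.85 TPM.

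Of 87 cytoplasmic ribosomal protein genes tested, 3 were called higher (0.885% of all genes were), 63 lay above every control in every knockdown library (8.53% of all genes did), and none lay below, with a median of 0.42 beside -0.17 over all genes. RpL26 stood at 3465, 1863 and 2544 TPM in the knockdown libraries, against 1331, 1188 and 1111 TPM in the controls (1.07 ± 0.22, limma adjusted p = 0.0441). RpS14a rose by 0.89 ± 0.16 (adjusted p = 0.0265) and RpS9 by 0.85 ± 0.18 (adjusted p = 0.0496), which lost its call whichever library was left out. None of the 87 was called after median-ratio scaling, and 2, 1 and 5 were called without knockdown libraries 1, 2 and 3 and none without any one control. The genes are short, 0.944 kb at the median, and the median fold change of all protein-coding genes was 0.03 up to 1 kb and -0.43 over 8 kb. As a sum the list took 221830 TPM, 184797 TPM and 184280 TPM in the knockdown libraries, against 159939 TPM, 146374 TPM and 132880 TPM in the controls. Nuclear genes of oxidative phosphorylation, 0.844 kb at the median, had a median fold change of 0.27, with 33 of 71 above every control and none called. Mitochondrial ribosomal protein genes had a median of 0.12 over 75 and no call.

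Among single genes called higher in all 6 fits with a library left out, eca stood at 292, 248 and 242 TPM in the knockdown libraries and at 102, 90.4 and 99.9 TPM in the controls (1.41 ± 0.16, limma adjusted p = 0.00310). It encodes éclair, a p24 family member that carries cargo from the endoplasmic reticulum. A second p24 gene beside it, p24-2, stood at 126, 127 and 129 TPM in the knockdown libraries, against 64.2, 58.9 and 51.3 TPM in the controls (1.12 ± 0.16, adjusted p = 0.0100). The pair moved by similar amounts, while Nepl12 in the same stretch of chromosome 3R fell to 0.494, 1.14 and 0.788 TPM in the knockdown libraries, against 4.06, 3.85 and 2.89 TPM in the controls. The call of p24-2 was lost without knockdown library 2 or control 3, and that of Nepl12 without control 1 or 2. Erasp rose to 45.4, 30.9 and 30.4 TPM in the knockdown libraries, against 11.9, 7.07 and 8.82 TPM in the controls (1.83 ± 0.24, adjusted p = 0.00717). A pair of unnamed genes stood out in the same way. CG9360 stood at 77.5, 73.7 and 42.4 TPM in the knockdown libraries and at 6.04, 4.88 and 5.35 TPM in the controls (3.31 ± 0.25, adjusted p = 0.000225), and CG1304 stood at 267, 223 and 186 TPM in the knockdown libraries, against 63.2, 44.4 and 41.9 TPM in the controls (2.16 ± 0.21, adjusted p = 0.00146). Pa1 rose by 1.5 ± 0.20 (adjusted p = 0.00765), a call lost without knockdown library 2. The mucin gene Muc18B was the single call among 17 mucin and peritrophic matrix genes (0.885% of all genes were called higher), at 5.34, 10.4 and 5.60 TPM in the knockdown libraries, against 0.629, 0.162 and 2.28 TPM in the controls, and it was lost without knockdown library 1 or 2 and without control 1 or 2.

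Of 17 genes that sense double-stranded RNA or act in RNA interference, 1 rose and 1 fell (0.885% and 1.24% of all genes did). The gene of the cGAS-like receptor cGlr1, which detects double-stranded RNA and activates Sting, stood at 23.5, 23.5 and 28.9 TPM in the knockdown libraries, against 9.58, 2.44 and 5.77 TPM in the controls (2.06 ± 0.36, limma adjusted p = 0.0263). Its call was lost without knockdown library 1, without knockdown library 2 and without control 3. Srg2, a gene induced through Sting, fell to 43.0, 60.7 and 64.0 TPM in the knockdown libraries, against 269, 172 and 157 TPM in the controls (-1.80 ± 0.24, adjusted p = 0.00858), and kept its call in all 6 such fits. Sting itself overlapped, at 21.3, 27.1 and 29.6 TPM in the knockdown libraries, against 31.6, 28.7 and 30.7 TPM in the controls. Dcr-2, which cuts double-stranded RNA for RNA interference, stood at 6.69, 11.1 and 16.2 TPM in the knockdown libraries, against 22.1, 21.8 and 19.6 TPM in the controls (-0.92 ± 0.28, adjusted p = 0.141), and was called lower without knockdown library 3. Without knockdown library 1 the NF-kappaB gene Rel was called higher. The receptor and the Sting-induced gene thus moved in opposite directions while Sting did not pass the test.

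The firmest call among the lower genes was Acbp3, which encodes an acyl-CoA binding protein. It stood at 139, 113 and 151 TPM in the knockdown libraries, against 1156, 1197 and 1294 TPM in the controls (-3.18 ± 0.16, limma adjusted p = 1.74e-05). The groups lay far apart, and the values within each were close to each other. The scavenger receptor gene ninaD, known for the uptake of dietary carotenoids in the gut, fell to 39.4, 37.3 and 56.9 TPM in the knockdown libraries, against 176, 316 and 301 TPM in the controls (-2.52 ± 0.26, adjusted p = 0.00220). The lipase gene magro (mag), which acts on dietary fat and cholesterol esters, stood at 263, 335 and 431 TPM in the knockdown libraries and at 889, 1595 and 791 TPM in the controls (-1.62 ± 0.28, adjusted p = 0.0247). Acbp3 and ninaD kept their calls in all 6 fits with a library left out, and mag lost its call without control 1 and without knockdown library 1 or 2. Of 38 tested genes in the list of lipid metabolism, mag was the one called, after median-ratio scaling 2 were called higher as well, and the median was -0.19. Acbp3 is also 1 of 6 tested fat body and haemocyte markers, 2 of which were called lower (1.24% of all genes were) and none higher, with a list median of 0.04. The other call was the GATA factor gene srp, at 1.10, 1.11 and 3.28 TPM in the knockdown libraries, against 5.13, 10.8 and 7.78 TPM in the controls (-1.69 ± 0.34, adjusted p = 0.0411). The lipophorin precursor gene apolpp went the other way, at 2.63, 2.50 and 2.55 TPM in the knockdown libraries, against 1.28, 1.0 and 0.345 TPM in the controls, without passing the test (0.96 ± 0.23, adjusted p = 0.0826), and it was called higher after median-ratio scaling. The list has 19 markers, of which these 6 reached the filter of 1 TPM.

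Carbohydrate digestion had 2 genes lower and 1 higher among 20, against 1.24% and 0.885% of all genes, and a median of -0.98. LManV and LManVI, alpha-mannosidases of the lysosomal type encoded side by side on chromosome 2L, were the ones that fell. LManV stood at 173, 262 and 387 TPM in the knockdown libraries, against 738, 1041 and 704 TPM in the controls (-1.64 ± 0.29, limma adjusted p = 0.0247). LManVI stood at 392, 613 and 905 TPM in the knockdown libraries, against 1477, 1936 and 1464 TPM in the controls (-1.42 ± 0.28, adjusted p = 0.0394). In both, knockdown library 3 was the nearest to the controls. Their neighbour LManIII had a larger gap and a larger spread, with 4.55, 6.08 and 43.9 TPM in the knockdown libraries, against 143, 336 and 75.8 TPM in the controls (-3.68 ± 1.01, adjusted p = 0.170). The amylase gene Amy-p, at 1798, 2206 and 2417 TPM in the knockdown libraries, against 3812, 4455 and 3043 TPM in the controls, did not pass (-0.81, adjusted p = 0.0622). The maltase gene Mal-B1 was the one that rose, at 1.27, 2.91 and 2.41 TPM in the knockdown libraries, against 0.172, 0.0747 and 0.0905 TPM in the controls (1.49 ± 0.24, adjusted p = 0.0204), a call that held without knockdown library 1 and was lost without any other library. LManV and LManVI lost theirs without knockdown library 2 and without each control. Without knockdown library 3, 7 genes of the list were called lower, beside 463 of 8465 over all genes. Without knockdown library 1 there were 2 and without knockdown library 2 none, and 0, 0 and 1 were without controls 1, 2 and 3. Knockdown sums over the list were 5822, 8229 and 10411 TPM, against 16650 TPM, 21266 TPM and 11128 TPM in the controls, so knockdown library 3 and control 3 nearly met.

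Among 27 digestive serine proteases and peptidases, 3 fell and none rose (1.24% and 0.885% of all genes did), all of the Jonah family. Jon74E stood at 4.88, 5.59 and 7.12 TPM in the knockdown libraries, against 25.5, 22.6 and 20.8 TPM in the controls (-1.81 ± 0.19, limma adjusted p = 0.00254). Jon99Fii, far more abundant as TPM, stood at 2938, 3016 and 3296 TPM in the knockdown libraries and at 4983, 5791 and 4642 TPM in the controls (-0.73 ± 0.14, adjusted p = 0.0370). Jon44E fell by 0.94 ± 0.19 on the log2 scale (adjusted p = 0.0400). After median-ratio scaling Jon74E alone of the list was called, with an adjusted p of 0.107 for Jon44E and 0.162 for Jon99Fii. Jon74E kept its call in all 6 fits with a library left out, Jon44E in 2 and Jon99Fii in 1. The number of the list called lower was 2, 1 and 4 without knockdown libraries 1, 2 and 3 and 1, 1 and 2 without controls 1, 2 and 3. Enterocyte identity and brush border genes gave no call among 17, with a median of -0.15. Without knockdown library 1 that median was 0.12 and the transporter gene Mdr50 was called lower, and without knockdown library 3 Amy-p, GATAe, Mdr50 and cad were. No call was made either among the 12 stem cell and enteroblast genes, with a median of 0.10, or the 21 enteroendocrine genes, though each of these lists had 1 gene called higher after median-ratio scaling.

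Cytochrome P450 enzymes oxidise foreign and endogenous compounds, and 3 of 65 fell while 1 rose (1.24% and 0.885% of all genes did). Cyp6a2, a gene linked to insecticide resistance, stood at 1.67, 3.29 and 2.29 TPM in the knockdown libraries, against 22.1, 24.3 and 28.8 TPM in the controls (-2.95 ± 0.22, limma adjusted p = 0.000225), and kept its call in all 6 fits with a library left out. Cyp12a4 stood at 118, 163 and 191 TPM in the knockdown libraries and at 420.1, 509.7 and 308 TPM in the controls (-1.38 ± 0.24, adjusted p = 0.0240). Cyp12d1-p fell by 1.81 ± 0.32 on the log2 scale (adjusted p = 0.0274), and Cyp316a1 rose by 1.17 ± 0.24 (adjusted p = 0.0436), with every control under 1 TPM. The list median of -0.14 lay near that of all genes. Without knockdown library 3, 8 P450 genes were called lower and 2 higher, beside 463 and 128 of 8465 over all genes. Without knockdown library 2 there were 1 and 0 of the list. Leaving out controls 1, 2 and 3 left 1, 1 and 3 of the list called lower. Of 28 UDP-glycosyltransferase genes, Ugt49B1 was the one called (-1.5 ± 0.25, adjusted p = 0.0207; 1.24% of all genes were called lower), with 73.1, 61.7 and 112 TPM in the knockdown libraries, against 224, 280.4 and 188 TPM in the controls. Its call was lost without knockdown library 1 or 2 and without control 1 or 2, and after median-ratio scaling 3 further genes of the list were called higher.

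Metallothioneins bind copper and zinc, and MtnB and MtnC fell among 17 metal genes tested (1.24% of all genes fell). MtnB stood at 6.38, 2.80 and 2.88 TPM in the knockdown libraries, against 29.8, 28.1 and 12.6 TPM in the controls (-2.27 ± 0.37, limma adjusted p = 0.0209). MtnC stood at 6.0, 8.45 and 11.5 TPM in the knockdown libraries, against 44.8, 37.7 and 21.3 TPM in the controls (-1.86 ± 0.31, adjusted p = 0.0216). In both genes control 3 was the lowest of its group and still above every knockdown library. Neither was called without knockdown library 2, without control 1 or without control 2, and MtnC was not without knockdown library 1. After median-ratio scaling MtnB was not called (adjusted p = 0.0635). The median of the list was -0.38. Summed over the 19 genes of the list, transcripts went the other way, at 8528, 8982 and 8147 TPM in the knockdown libraries. The controls summed to 6791, 6699 and 7768 TPM.

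The homeobox gene exex stood at 22.4, 21.7 and 32.7 TPM in the knockdown libraries, against 56.7, 64.6 and 61.9 TPM in the controls (-1.24 ± 0.20, limma adjusted p = 0.0187), the single call among 8 copper cell and acid secretion genes tested (1.24% of all genes were called lower). The zinc-finger gene odd stood at 20.2, 7.40 and 15 TPM in the knockdown libraries, against 33.3, 43.4 and 42.1 TPM in the controls (-1.51 ± 0.32, adjusted p = 0.0496), and was not called after median-ratio scaling (adjusted p = 0.111). The calls of srp, odd, exex and Ada2a were lost without knockdown library 2 and without each control, and that of srp without knockdown library 1 too. Ada2a, a chromatin adaptor gene, fell by 1.13 ± 0.20 on the log2 scale (adjusted p = 0.0260). Dph1, an enzyme of diphthamide synthesis on elongation factor 2, had some of the tightest groups among the lower genes, with 29.7, 24.6 and 23.1 TPM in the knockdown libraries, against 92.5, 84.3 and 90.6 TPM in the controls (-1.76 ± 0.17, adjusted p = 0.00128), and kept its call in all 6 fits with a library left out. Adat1, a tRNA adenosine deaminase related to ADAR, stood at 0.869, 1.08 and 1.78 TPM in the knockdown libraries, against 3.11, 4.19 and 4.0 TPM in the controls (-1.10 ± 0.22, adjusted p = 0.0408), a call held without knockdown library 3 alone.

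Among non-coding rows, ribosomal RNA pseudogenes and small nucleolar RNAs had calls in the lower direction alone. Of 9 ribosomal RNA genes and pseudogenes tested 6 fell, against 1.24% of all genes, and none rose. The pseudogene 28SrRNA-Psi:CR45855 stood at 1.15, 2.42 and 3.0 TPM in the knockdown libraries, against 12.7, 22.2 and 20.5 TPM in the controls (-2.62 ± 0.29, limma adjusted p = 0.00310). Another, 18SrRNA-Psi:CR41602, stood at 107, 184 and 134 TPM in the knockdown libraries, against 579, 358 and 513 TPM in the controls (-1.77 ± 0.25, adjusted p = 0.00971). All 6 lie on the X chromosome, 3 of them at X:23205822-23217140 and 2 at X:23261772-23271158, and are copies of each other and of the ribosomal RNA, so their calls are not independent. Between 4 and 6 of them were called lower in every fit with a library left out.

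Small nucleolar RNAs, which guide modification of ribosomal RNA, gave 7 lower and no higher calls among 67 tested (1.24% of all genes were called lower), with a median of -0.81. snoRNA:Me28S-A1322 stood at 2.19, 3.20 and 9.91 TPM in the knockdown libraries, against 17.2, 22.8 and 23.2 TPM in the controls (-2.05 ± 0.42, limma adjusted p = 0.0496), a call that held in 1 of the 6 fits with 1 library left out. Its host gene eEF1alpha1 overlapped between the groups at 4200.0, 6839 and 5765 TPM in the knockdown libraries, against 5374, 5289 and 4690.3 TPM in the controls. Calls of this class depended on single libraries, with 5, 1 and 25 lower without knockdown libraries 1, 2 and 3 and 1, 3 and 2 without controls 1, 2 and 3. Over all genes, 463 of 8465 were called lower without knockdown library 3. Rows this short inside longer genes are uncertain in tables of this kind.

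**Figure D5:**
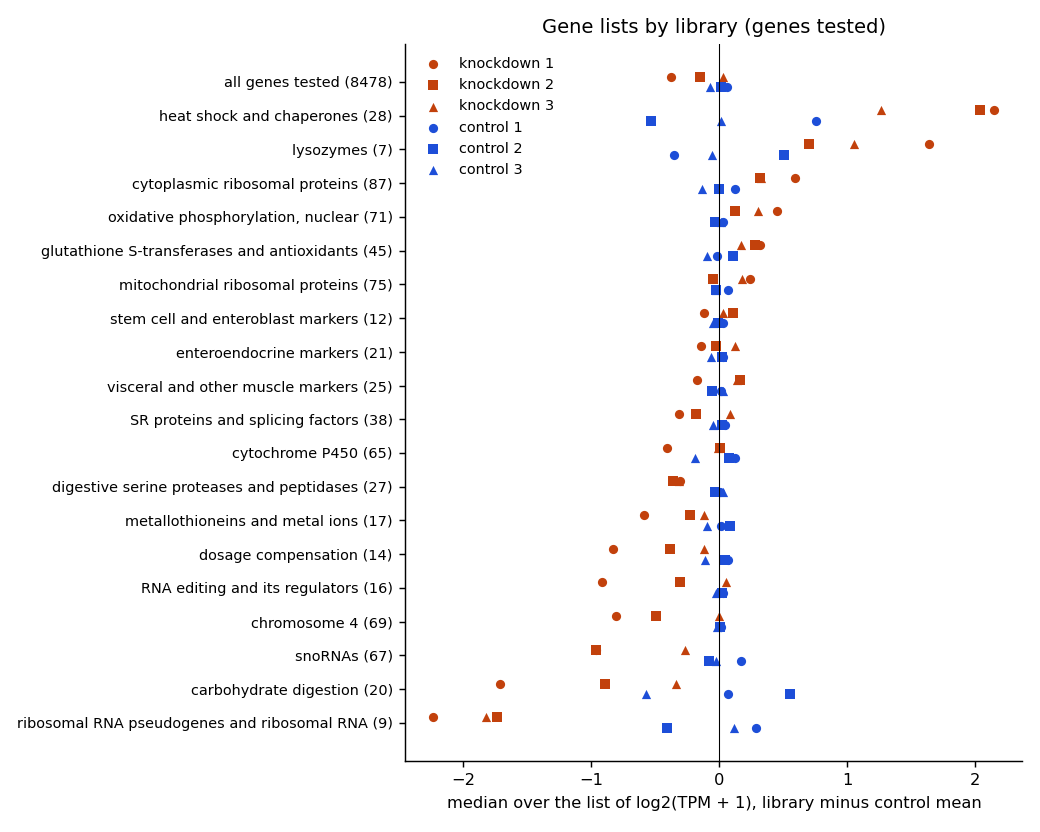
Median difference of log2(TPM + 1) from the control mean (horizontal axis) for all genes and the gene lists (rows, with the number tested), one point for each library, with the knockdown libraries above the controls in each row. Heat shock and lysozyme genes lie to the right in the knockdown libraries, and carbohydrate digestion, ribosomal RNA pseudogenes and snoRNAs to the left.

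Many lists gave no call. Among them were the proteasome (33 genes tested), translation factors (43), RNA polymerase I and the nucleolus (26), the vacuolar ATPase (19), antimicrobial peptides (6), the IMD pathway (23), the Toll, JNK and JAK-STAT pathways (20), glycolysis (27), muscle (25) and the cell cycle (20). Others were EGFR signalling (20), the Wnt, Notch, Hippo and BMP pathways (23), insulin and TOR signalling (18), apoptosis and autophagy (19) and septate junctions (18). The Malpighian tubule and hindgut (14, median -0.61), salivary gland, crop and proventriculus (8) and stock marker (5) lists gave none either. Without knockdown library 3, eIF4G1 of the translation factors, wcd of the nucleolus list and Cals of the muscle list were called lower and RnrS of the cell cycle list higher, and after median-ratio scaling the peptide gene Drsl2 was called higher. Of the Toll, JNK and JAK-STAT list, kay, the fly Fos, stood at 129.6, 373.8 and 191 TPM in the knockdown libraries and at 95.0, 68.9 and 69.5 TPM in the controls (1.44 ± 0.35, limma adjusted p = 0.0857), and was called higher after median-ratio scaling. Without knockdown library 1, kay, puc, upd2 and upd3 of that list and Rel, upd2 and upd3 of the IMD list were called higher. The circadian gene tim stood at 43.3, 86.3 and 140.0 TPM in the knockdown libraries and at 246, 287 and 189 TPM in the controls (-1.54, adjusted p = 0.105), with none of 12 clock genes called. A missed threshold does not show that these genes were alike in both groups. The yolk protein gene Yp1, a female marker, stood at 54.3, 76.7 and 69.0 TPM in the knockdown libraries and at 29.9, 15.7 and 1.5 TPM in the controls, and 0 of 6 ovary and female markers were called.

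By chromosome, 18 of 1401 X-linked genes were called higher and 15 lower, together 2.36% beside 2.12% of all genes, with a median of -0.19 beside -0.17. The sex is not given, and the male-specific roX RNAs were at or near 0 outside knockdown library 1. Dosage compensation was thus not tested by these X-linked values. On chromosome 4, of 69 genes 1 was called higher and none lower, with a median of -0.45. Without knockdown library 3, 17 genes of chromosome 4 were called lower, beside 463 of 8465 over all genes. Called genes also stood as neighbours: 56 of the 180 had another called gene within 20 kb, in 25 groups, of which 20 moved one way throughout. How often tested genes at large lie this near a called gene was not computed. Some groups hold overlapping rows, such as Cht9 with asRNA:CR44703 and CG6912 with asRNA:CR45600, or related copies, so their calls are not independent. The 4 groups with at least 3 genes were the GstE cluster, mwh with the lysozymes, the stretch with eca, p24-2 and Nepl12, and 3 of the ribosomal RNA pseudogenes. Of the called genes, 60 overlap a gene on the opposite strand (33.3%, against 43.5% of genes tested), and since the strand setting of the counting is not given, their reads cannot be assigned with certainty. They include LysC, LysP, GstE1 (which overlaps GstE10), mag, Srg2, Jon44E, Mal-B1, Ugt49B1, Ass, Adat1 and CG9360. On the same strand, AsnS overlaps chb, Cyp6a2 overlaps Epac, Ada2a overlaps Polr2D and p24-2 overlaps Unc-115b.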

How the data were processed

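RNA-seq of 3 Zn72D knockdown and 3 control libraries was used. Reads were aligned with STAR 2.7.1a to dm6 and quantified with StringTie, per the submitters' processing notes; strand setting and annotation release: not given in the sources used here. The authors deposited 1 table per library with TPM, and, per the file headers, FPKM values and coverage (mean signal per base) beside it. The deposited TPM of 17830 rows with FlyBase gene IDs was used. FPKM was not used, and coverage served only to compare tables and to estimate aligned bases. Because TPM holds no counts, no interval or floor from counting error is given, and depth limits low genes in an unknown degree.

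Genes with a mean of at least 1 TPM over the 6 libraries were tested on log2(TPM + 1) with limma 3.58.1 in R 4.3.3 (variance trend, robust), with Benjamini-Hochberg adjustment over all genes and a threshold of 0.05. The fit was checked on simulated data. Single values used an exact two-sided permutation test. Names came from a RefSeq gene table, which held 17751 of the IDs, and 99.88% of those had equal coordinates in the release 115 annotation. Exonic length is the union of annotated exons.

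Named genes were Zn72D and Adar, the 15 called genes with the largest change in each direction among named loci with a mean of at least 5 TPM in the higher group, and up to 3 called members of each list and direction. Genes with bare CG numbers, antisense RNAs, list members that were not called, and Cth, Mtap, Gs2, Ass, Adat1, Ada2a, eca's neighbours, GstE1, GstE5, antr and mthl8 were picked once values were known. The libraries and gene lists were chosen with earlier results of these data known. Same-numbered libraries did not deviate together (r of 0.055, -0.070 and -0.018), so the numbers were not used as pairs. Alternatives were median-ratio and quantile scaling, other pseudocounts and filters, array weights, plain variances, a replicate block, the second quantification of the controls, and each library left out.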

Additional observations from a re-analysis of the deposited data

How the results depend on the processing

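The number of called genes (180, of which 75 higher and 105 lower) moved by more than 1.5 times under several settings. With array weights, whose estimation stopped before it converged, it was 2776 (836 higher, 1940 lower). With the second quantification of the controls it was 301 (125 and 176), with a mean of at least 5 TPM it was 94 (36 and 58) and with no filter on low values 88 (46 and 42). Median-ratio scaling gave 118 higher and quantile scaling 123 higher. A replicate block, for numbers that do not pair the libraries, gave 420 (169 and 251). Leaving out 1 library at a time gave 54 to 591 calls, with 26 to 128 higher and 28 to 463 lower. Lists with at least 1 call numbered 19, against 49 with array weights, 31 with the replicate block and 10 to 37 with a library left out. Of the 49 named genes that were called, 22 kept their call with no filter and 18 to 46 with a library left out. Adar was called lower with array weights (-0.70, adjusted p = 0.00737) and without knockdown library 3, and its change ran from -1.06 to -0.56 over the fits with a library left out. That of Zn72D ran from -0.43 to -0.07 and was never called. No result changed sign while called, under the alternatives run. The cause was not tested. Over single genes and list medians, 1408 of the recomputed values kept their call or moved by less than the spread between libraries, 196 lost their call and 34 moved. Depth limits genes near the filter of 1 TPM.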

Other observations

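The tables also hold rows for annotated transposon insertions, which entered no comparison above. Of 5416 such rows, 3 stood at 3 TPM or more in every control and under 0.5 TPM in every knockdown library, and 0 showed the reverse. The insertion G2{}340 at 2L:11315294-11317659 stood at 0.0360, 0.0941 and 0.0560 TPM in the knockdown libraries and at 32.5, 30.7 and 28.9 TPM in the controls. For an insertion inside RhoU on the X chromosome, the levels were 0.00539, 0 and 0.00479 TPM in the knockdown libraries, against 3.23, 3.69 and 3.49 TPM in the controls. The third was a Quasimodo insertion on chromosome 2R, at 0, 0 and 0.190 TPM in the knockdown libraries, against 5.42, 3.15 and 3.85 TPM in the controls. All insertion rows together came to 864, 1116 and 1650 TPM in the knockdown libraries, against 1771, 1949 and 1863 TPM in the controls, with knockdown library 3 nearest to the controls. These rows were given no test, and reads of repeated elements may be shared among copies.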
